A study of Arabidopsis thaliana with 11 samples.

Results

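The genes described here make galactinol, the raffinose family sugars built from it, and the inositol that galactinol needs. They were grouped by function, as 8 loci of the 28718 in the authors' deposited table, and were chosen with earlier results of these data known. They are the galactinol synthases GOLS1 (AT2G47180), GOLS2 (AT1G56600) and GOLS3 (AT1G09350), the raffinose synthase RS5 (AT5G40390), the stachyose synthase STS (AT4G01970), and the inositol phosphate synthases MIPS1 (AT4G39800), MIPS2 (AT2G22240) and MIPS3 (AT5G10170). All 8 had probes on the array, and 7 were well above background on all 11 arrays. STS was not well above background on any array and was not tested.

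In this pathway, inositol phosphate synthase turns glucose 6-phosphate into inositol 3-phosphate, the first committed step towards free inositol. Galactinol synthase joins inositol to galactose from UDP-galactose, raffinose synthase moves that galactose onto sucrose, and stachyose synthase adds a further galactose. Raffinose and galactinol are known as compatible solutes and protectants in leaves under drought, salt and cold, and inositol also feeds phospholipids and the inositol phosphates that act in guard cell signalling.

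The samples were enriched for guard cells, the paired epidermal cells around each stomatal pore, and came from Arabidopsis thaliana of accession Columbia-0, for which the labels name no mutation or transgene. The 3x salt group (4 arrays) had its pots soaked for 2 h in 75 mM NaCl on days 1 and 2, in 150 mM on days 7 and 8 and in 200 mM on days 13 and 14. The 1x salt group (3 arrays) received only the soaks in 200 mM NaCl on days 13 and 14, and the no-salt group (4 arrays) received tap water. Plants of every group were 4 to 5 weeks old at the start, were harvested on day 15 at 6 to 7 weeks after 4 h of light, and grew in a 12 h day at 22 °C with nights at 16 °C. Nothing in the labels says whether each sample had its own set of plants, so p-values measure the spread between these samples, which may in part be technical.

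Each 1-colour Agilent array carried 43803 spots, with 66.24% to 80.25% of them well above background, and the number of arrays limits the precision. All 12 guard cell markers, among them MYB60, FAMA and the channels KAT1 and GORK, were well above background on every array. So were all 7 mesophyll markers and 11 of 12 vascular markers. The mean log2 level of the vascular markers measured on all arrays was 1.00 to 1.45 on 3x salt arrays, 2.01 to 2.37 on 1x salt arrays and 1.08 to 1.40 on no-salt arrays, and that of the mesophyll markers was 5.49 to 5.61, 6.48 to 7.21 and 6.44 to 6.76 in the same groups. Guard cell markers averaged -0.42 to -0.09 on 3x salt arrays, 0.01 to 0.55 on 1x salt arrays and -0.37 to 0.21 on no-salt arrays. Pavement cell and trichome markers, 5 of 6 measured, averaged -0.09 to 0.04, 0.55 to 0.69 and 0.04 to 0.39. The part of these cell types in the results below was not tested, and in such samples fewer cells of a type and less RNA per cell cannot be told apart. Array 1 of the 1x salt group stands apart from the other two: over all genes its log2 values differed from theirs with an SD of 0.609 and 0.686, against 0.457 between those arrays. Results that rest on array 1 are given with and without it. Array 3 of the 1x salt group had 442 spots flagged as outliers, against 9 to 38 on the other arrays, and the 80.25% well above background. Its values, centred per gene, correlated at 0.79 with its column of the authors' deposited table, against 0.91 to 0.93 for the other arrays. Fits without 1x salt array 1 rest on arrays 2 and 3 of that group. The 3x salt arrays fell into 2 pairs over all genes: the SD of log2 differences was 0.333 between arrays 1 and 2 and 0.33 between arrays 3 and 4, against 0.513 to 0.56 across the pairs.

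Levels are log2 signals relative to the 75th percentile of the same array, differences are differences of group means on that log2 scale, and a gene rose or fell where limma's p, adjusted by Benjamini-Hochberg over 23442 genes, was under 0.05. Both salt regimes were set against the same 4 no-salt arrays. Levels are compared between arrays for 1 gene and not between genes.

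After 3x salt, 5 of the 7 measured genes fell relative to no salt and none rose. They were GOLS1, GOLS2, RS5, MIPS2 and MIPS3, so each measured enzyme step had at least 1 gene that fell. Of all genes tested, 23.6% fell in this comparison. The median difference of the 7 genes was -1.02, against 0.04 over all genes tested. At an unadjusted p under 0.05, 6 of them fell and 0 rose, where 6159 of the 23442 genes tested fell and 7275 rose. On 6 of the 7, all but GOLS3, every 3x salt array lay below every no-salt array, as for 23.6% of all genes. After 1x salt, 2 of 7 fell relative to no salt, GOLS2 and MIPS2, where 7.70% of all genes fell, and the median difference was -0.89 against 0.04 over all genes. At an unadjusted p under 0.05, 4 fell and 0 rose, where 3201 of the 23442 genes tested fell and 4166 rose. The arrays of 2 genes, GOLS2 and MIPS2, lay wholly below no salt, as for 13.0% of all genes. Between the regimes, 3 of 7 (RS5, MIPS2 and MIPS3) fell in 3x salt relative to 1x salt, where 19.0% of all genes fell, and the median difference was -0.32 against 0.01. The same 3 genes lay wholly below the 1x salt arrays, as for 20.0% of all genes. In that last comparison 51.1% of all calls were rises, against 61.8% after quantile normalisation, 43.5% after normexp background correction, 42.4% with slide as a fixed block and 25.8% with close arrays averaged.

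**Figure D1:**
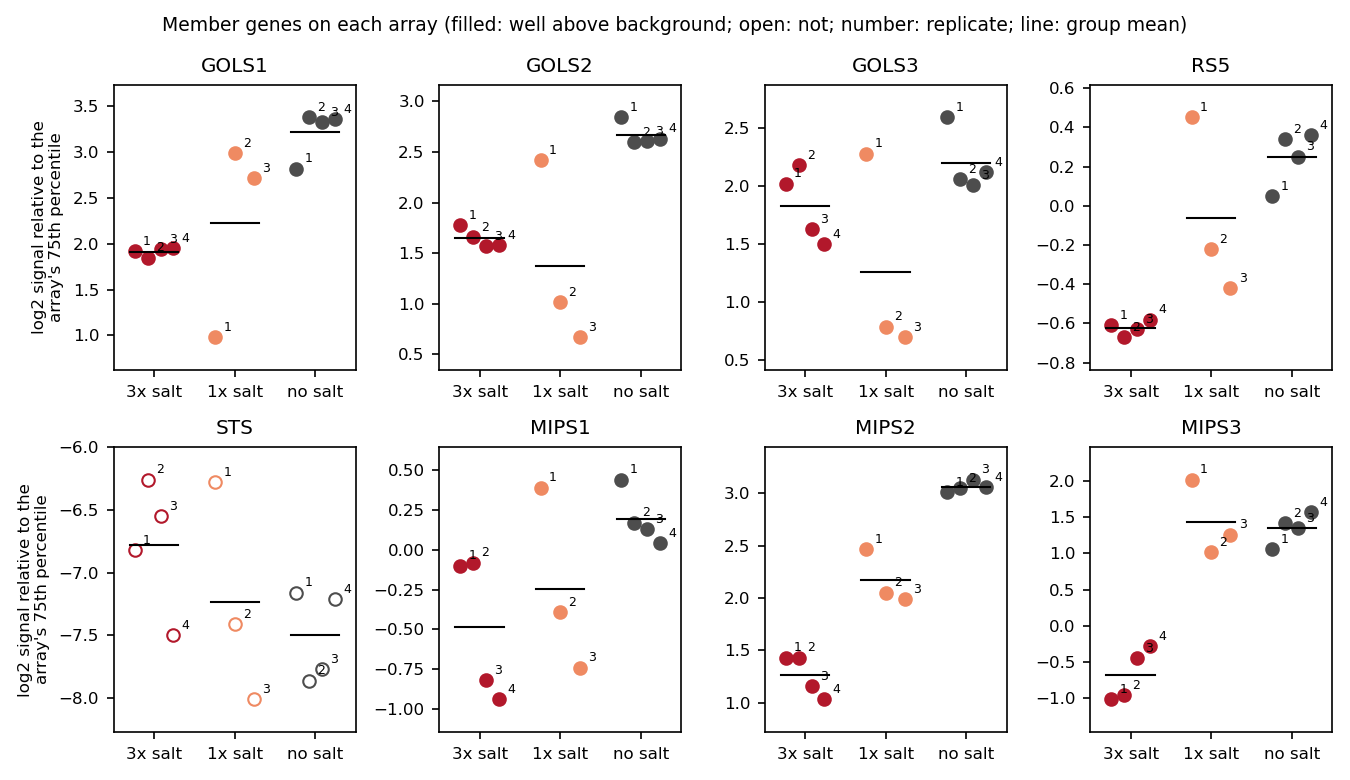
Log2 level of each gene relative to the 75th percentile of its array (y axis, with its own range in each panel) on the 4 3x salt, 3 1x salt and 4 no-salt arrays (x axis). Points are arrays with their replicate number, filled where the probe was well above background and open where it was not, and lines are group means; MIPS2 falls into 3 separate groups, and STS is open on all 11 arrays.

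GOLS1 encodes a galactinol synthase known to be induced by drought, salt and heat. Its log2 level was 1.92, 1.85, 1.94 and 1.95 on the 3x salt arrays, 0.98, 2.99 and 2.72 on the 1x salt arrays, and 2.82, 3.38, 3.33 and 3.36 on the no-salt arrays. The 3x salt arrays lay close together and all below the no-salt arrays, whereas the 1x salt arrays were scattered, with array 1 the lowest of all 11. GOLS1 fell by 1.31 ± 0.36 (SE) in 3x salt against no salt, to 0.405 of the no-salt level (limma adjusted p = 0.0129). In 1x salt the difference from no salt was -0.99 ± 0.39 and did not pass (adjusted p = 0.114), with a range of -1.37 to -0.37 when each array was left out in turn. The 2 salt regimes differed by -0.32 (95% interval -1.19 to 0.56, adjusted p = 0.556). A dimmer second probe of GOLS1 gave differences of -1.45 for 3x salt and -1.09 for 1x salt against no salt, and it too was lowest on 1x salt array 1, at -1.71. Slides 1 and 6 each held a 3x salt array and a no-salt array, and GOLS1 differed by -0.90 and -1.41 within them. With slide as a fixed block the difference was -0.89 and no longer passed (adjusted p = 0.154).

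GOLS2, another drought- and salt-inducible galactinol synthase, had log2 levels of 1.78, 1.66, 1.57 and 1.58 on 3x salt arrays, 2.42, 1.02 and 0.67 on 1x salt arrays, and 2.84, 2.60, 2.61 and 2.63 on no-salt arrays. Every salt array lay below every no-salt array, and 1x salt array 1, the lowest of its group for GOLS1, was the highest of its group for GOLS2. GOLS2 fell by 1.02 ± 0.30 in 3x salt (adjusted p = 0.0172) and by 1.30 ± 0.33 in 1x salt (adjusted p = 0.0236), both against no salt. The salt regimes did not differ at the threshold (0.28, 95% interval -0.45 to 1.01, adjusted p = 0.534). Within slides 1, 2 and 4, each with a 1x salt and a no-salt array, the difference was -0.42, -1.59 and -1.93, and within slides 1 and 6 the 3x salt difference was -1.07 and -1.05. With slide as a fixed block neither call remained (3x salt -1.30, adjusted p = 0.0519, and 1x salt -1.27, adjusted p = 0.0868). The 1x salt call was also lost when 1x salt array 2 or 3 was left out (adjusted p = 0.0874 and 0.0826) or any 1 no-salt array (adjusted p = 0.0508 to 0.0544). Without 1x salt array 1 the 1x salt difference from no salt was instead -1.83 (adjusted p = 2.59e-05). After normexp background correction both calls were lost (3x salt -0.92, adjusted p = 0.0618, and 1x salt -1.21, adjusted p = 0.0922).

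GOLS3 is the galactinol synthase known for its induction by cold. Its log2 level was 2.02, 2.18, 1.63 and 1.50 on 3x salt arrays, 2.28, 0.79 and 0.70 on 1x salt arrays, and 2.59, 2.06, 2.01 and 2.12 on no-salt arrays. The groups overlapped in every comparison, and arrays 2 and 3 of the 1x salt group were the lowest of all. No difference passed: -0.36 ± 0.33 for 3x salt against no salt (adjusted p = 0.386), -0.94 ± 0.35 for 1x salt against no salt (adjusted p = 0.0992) and 0.58 ± 0.35 for 3x salt against 1x salt (adjusted p = 0.224). Without 1x salt array 1, GOLS3 fell by 1.45 in 1x salt against no salt (adjusted p = 0.00191) and was 1.09 higher in 3x salt than in 1x salt (adjusted p = 0.00548).

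RS5 encodes the raffinose synthase that makes most of the raffinose in stressed Arabidopsis leaves. Its log2 level was -0.61, -0.67, -0.63 and -0.58 on 3x salt arrays, 0.45, -0.22 and -0.42 on 1x salt arrays, and 0.05, 0.34, 0.25 and 0.36 on no-salt arrays. The 3x salt arrays spanned less than any other group and lay below all others, and the 1x salt arrays fell on both sides of the no-salt arrays. RS5 fell by 0.87 ± 0.16 in 3x salt against no salt, to 0.546 of that level (adjusted p = 0.00152), and by 0.56 ± 0.18 in 3x salt against 1x salt (adjusted p = 0.0299). In 1x salt against no salt the difference was -0.31 ± 0.18 (adjusted p = 0.256), and without 1x salt array 1 it was -0.57 (adjusted p = 0.00435). Within slides 1 and 6 the 3x salt difference from no salt was -0.66 and -0.94, and within slide 1 the difference of the 3x salt from the 1x salt array was -1.06. The call between the regimes was lost when any 1 of the 3x salt arrays was left out (adjusted p = 0.0531 to 0.0593), and with slide as a fixed block (-0.70, adjusted p = 0.18). It was also lost after normexp (adjusted p = 0.111), in a fit of the authors' deposited table (adjusted p = 0.0937) and with the mean of all probes (-0.45, adjusted p = 0.0961). In all, that call passed under 10 of 22 alternatives. A second RS5 probe was well above background on 6 of 11 arrays, and no difference is given for it.

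STS, whose product makes stachyose from raffinose in seeds, had 2 probes, and neither was well above background on any array. Its brighter probe read -7.50 to -6.26 on 3x salt arrays, -8.01 to -6.28 on 1x salt arrays and -7.86 to -7.16 on no-salt arrays, which set only upper bounds, so no fold is given.

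MIPS2 encodes an inositol phosphate synthase isoform. Its log2 level was 1.43, 1.43, 1.16 and 1.03 on 3x salt arrays, 2.47, 2.05 and 1.99 on 1x salt arrays, and 3.01, 3.05, 3.13 and 3.06 on no-salt arrays. The 3 groups did not overlap, with 3x salt lowest, 1x salt between and no salt highest. MIPS2 fell by 1.80 ± 0.13 in 3x salt against no salt, to 0.287 of that level (adjusted p = 8.97e-06). It fell by 0.89 ± 0.14 in 1x salt against no salt (adjusted p = 0.0025) and by 0.91 ± 0.14 in 3x salt against 1x salt (adjusted p = 0.000795). The 1x salt difference was -0.54, -1.0 and -1.13 within slides 1, 2 and 4, and the 3x salt difference was -1.58 and -2.03 within slides 1 and 6. The fall in 3x salt against no salt passed under all 22 alternatives, between -1.88 and -1.71. Only 2.59% of all genes had a more negative difference in that comparison.

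MIPS3, a further isoform of the same enzyme, had log2 levels of -1.02, -0.96, -0.45 and -0.28 on 3x salt arrays, 2.02, 1.02 and 1.26 on 1x salt arrays, and 1.06, 1.42, 1.35 and 1.57 on no-salt arrays. All 3x salt arrays lay below all others, and the 1x salt and no-salt arrays overlapped. MIPS3 fell by 2.03 ± 0.24 in 3x salt against no salt, to 0.246 of that level (adjusted p = 0.000117), and by 2.11 ± 0.26 in 3x salt against 1x salt (adjusted p = 0.000316). Within slides 1 and 6 the 3x salt difference from no salt was -2.08 and -1.85. In 1x salt against no salt the difference was 0.08 (95% interval -0.49 to 0.66, adjusted p = 0.869), and it turned to -0.21 without 1x salt array 1. That interval excludes a fall of the size seen after 3x salt, and the direct contrast of the regimes passed under 21 of 22 alternatives.

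MIPS1, the isoform whose loss in Arabidopsis lowers leaf inositol and gives light-dependent leaf lesions, had log2 levels of -0.10, -0.08, -0.82 and -0.94 on 3x salt arrays, 0.39, -0.39 and -0.74 on 1x salt arrays, and 0.44, 0.17, 0.13 and 0.04 on no-salt arrays. All 3x salt arrays lay below all no-salt arrays but in 2 pairs, arrays 1 and 2 near the no-salt level and arrays 3 and 4 well below it. The difference of -0.68 ± 0.27 in 3x salt against no salt missed the threshold (adjusted p = 0.0559), and it passed under 9 of 22 alternatives, among them slide as a fixed block (-0.86, adjusted p = 0.034). In 1x salt against no salt it was -0.44 ± 0.29 (adjusted p = 0.332), and between the regimes -0.24 (95% interval -0.88 to 0.41, adjusted p = 0.55).

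**Figure D2:**
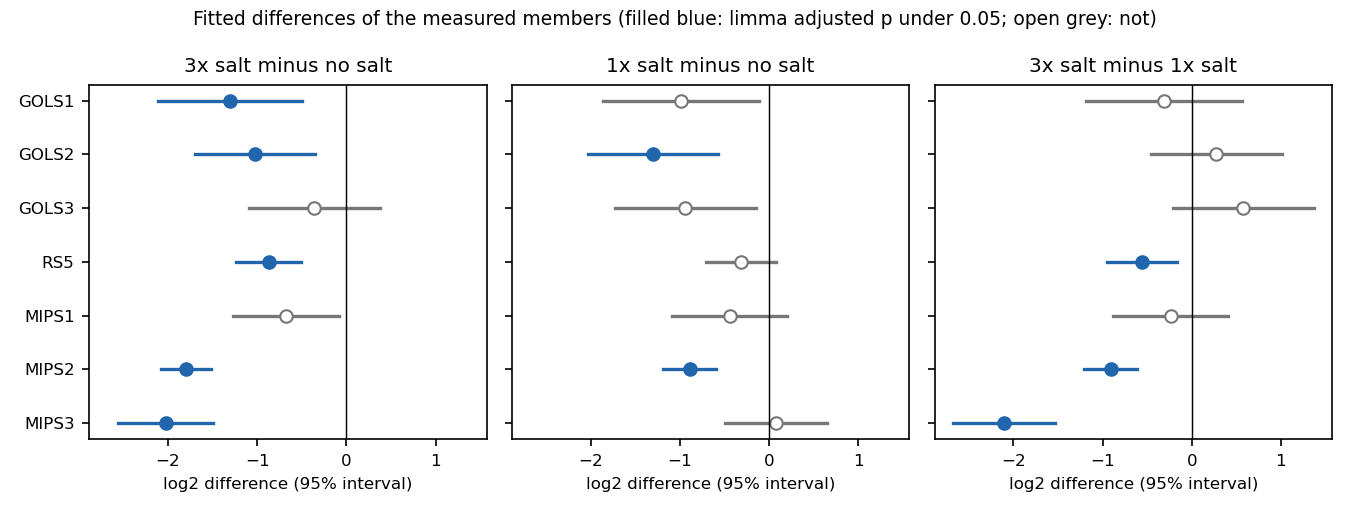
Fitted log2 difference (x axis, dot) with its 95% interval (line) for the 7 measured genes (y axis) in 3x salt minus no salt, 1x salt minus no salt and 3x salt minus 1x salt. Filled blue marks a limma adjusted p under 0.05 and open grey the rest; 5, 2 and 3 genes are filled, all with a negative difference.

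Across the 7 genes, the arrays did not move as one block. The deviation from the no-salt mean on the 3x salt arrays was -1.37 to -1.27 for GOLS1, -1.10 to -0.90 for GOLS2 and -0.92 to -0.83 for RS5. MIPS1, MIPS2, MIPS3 and GOLS3 instead showed the 2 pairs of 3x salt arrays that all genes together showed. The deviation of MIPS1 from the no-salt mean was -0.30 and -0.27 on 3x salt arrays 1 and 2, and -1.01 and -1.13 on arrays 3 and 4. MIPS3 had the reverse order, with -2.37 and -2.31 on arrays 1 and 2, and -1.79 and -1.63 on arrays 3 and 4. Of the 1x salt arrays, array 1 was the one on which GOLS1 was farthest below the no-salt mean (-2.24). Every other measured gene was highest on it among the 1x salt arrays: GOLS2 (-0.25), GOLS3 (0.09), RS5 (0.20), MIPS1 (0.19), MIPS2 (-0.59) and MIPS3 (0.67). Without that array, 4 of 7 genes fell in 1x salt against no salt (GOLS2, GOLS3, RS5 and MIPS2), where 10.5% of all genes fell in that fit. In the same fit 6 of 7 passed between the regimes, where 15.8% of all genes rose and 16.0% fell, with GOLS2 (0.80) and GOLS3 (1.09) higher and GOLS1 (-0.94), RS5, MIPS2 and MIPS3 lower in 3x salt.

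**Figure D3:**
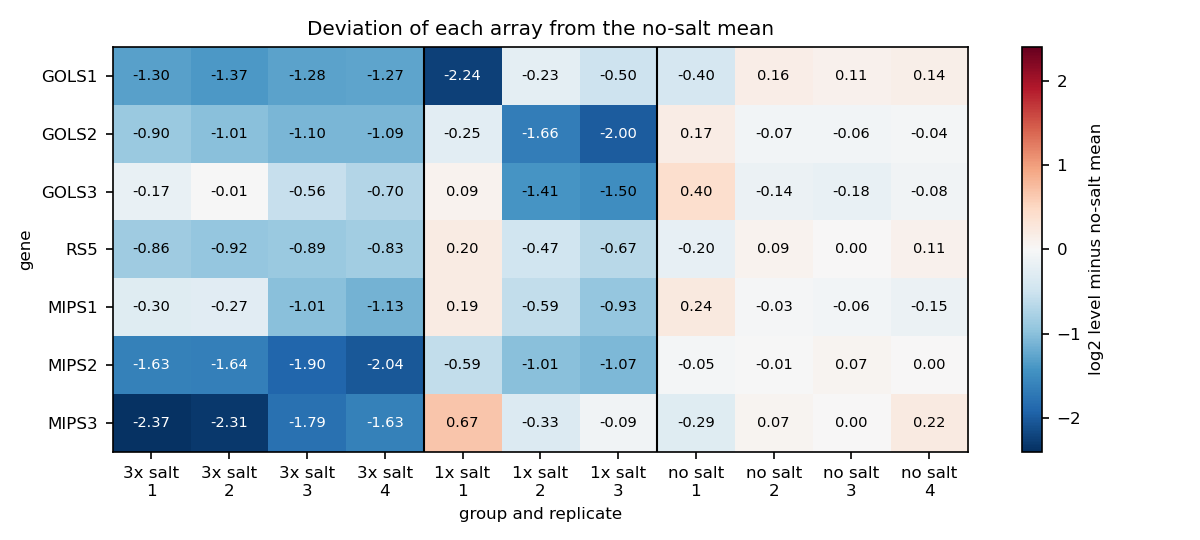
Log2 level minus the no-salt mean of the same gene (colour and printed value, blue below and red above) for the 7 measured genes (rows) on each array (columns, by group and replicate). All 3x salt arrays are below 0 for every gene, and 1x salt array 1 is the lowest of its group for GOLS1 and the highest for every other gene.

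Levels over the 11 arrays, which share these groups, were most alike for RS5 and MIPS2 (Pearson r = 0.91), for RS5 and MIPS3 (r = 0.89) and for GOLS2 and GOLS3 (r = 0.88). GOLS1 was unlike the other galactinol synthases, with r = 0.22 to GOLS2 and -0.14 to GOLS3. Among 19172 other genes, the closest to RS5 were TCH3, which encodes a calmodulin-like protein (r = 0.988), and the nitrate transporter gene NAXT1 (r = 0.981). MIPS1 was closest to PIF4, a light-signalling transcription factor (r = 0.986), and to the cytochrome P450 gene CYP71B2 (r = 0.981). MIPS2 was closest to AT1G18360 and ACR5 (r = 0.993 each), and MIPS3 to CYP86A8, a fatty acid hydroxylase of cutin synthesis, and MES18, a methyl esterase gene (r = 0.993 each). The nearest genes to the galactinol synthases have no symbol in the table used here: AT3G05165 (r = 0.981) and AT2G25130 (0.977) for GOLS1, AT5G25040 (0.987) and AT5G52780 (0.981) for GOLS2, and AT4G08570 (0.963) and AT2G43200 (0.955) for GOLS3.

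Genes that act around these enzymes were described in 7 lists. Of the 5 further galactinol synthase genes, 2 were measured. GolS4 (AT1G60470) was well above background only on the 3x salt arrays, at -5.14, -4.79, -4.07 and -4.10, against -7.39, -7.99 and -6.82 on 1x salt arrays and -6.30, -7.66, -8.01 and -7.77 on no-salt arrays. On the signals used in the main fit, the 3x salt level was at least 3.32-fold higher than that of no salt. Against 1x salt it was at least 3.38-fold higher on the same signals. It passed the filter on dim genes only through the 3x salt arrays, so no p is given. This dim gene differed by only 0.01 from no salt after normexp background correction, and by 1.64 in the authors' deposited table. Both are below the bound against no salt, 1.73 on the log2 scale. Normexp with its offset and the deposited table are on other scales, so the bound stands only for the signals of the main fit.

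Among the 6 alpha-galactosidase and SIP genes, whose products split galactose from raffinose and related sugars or are close relatives of those that do, 4 rose and 0 fell in 3x salt against no salt, where 27.9% of all genes rose. At an unadjusted p under 0.05 the count of falls was also 0, where 6159 of the 23442 genes tested fell. SIP2 (AT3G57520), an alkaline alpha-galactosidase known to act on raffinose, had log2 levels of 4.00, 3.92, 3.69 and 3.58 on 3x salt arrays, 2.00, 3.37 and 3.12 on 1x salt arrays, and 1.25, 1.76, 1.66 and 1.73 on no-salt arrays. The 3 groups did not overlap, in the order opposite to that of MIPS2. SIP2 rose by 2.20 ± 0.27 in 3x salt (adjusted p = 0.000133) and by 1.23 ± 0.29 in 1x salt (adjusted p = 0.0174), both against no salt, and by 0.97 ± 0.29 in 3x salt against 1x salt (adjusted p = 0.0231). The 1x salt call was lost with slide as a fixed block (adjusted p = 0.0879) and without 1x salt array 2 or 3 (adjusted p = 0.0639 and 0.0709). The call between the regimes was lost with the same block (adjusted p = 0.0873) and without 3x salt array 1 (adjusted p = 0.0534).

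DIN10 (AT5G20250), a dark-inducible relative of raffinose synthases, had log2 levels of 2.69, 2.78, 1.14 and 0.99 on 3x salt arrays, 2.90, 3.82 and 3.57 on 1x salt arrays, and 0.24, -0.38, -0.38 and -0.64 on no-salt arrays. It rose by 2.19 ± 0.43 in 3x salt (adjusted p = 0.00207) and by 3.72 ± 0.47 in 1x salt (adjusted p = 0.00108), so 1x salt arrays were highest and no-salt arrays lowest. DIN10 fell by 1.53 in 3x salt against 1x salt (adjusted p = 0.026), a call that passed under 13 of 22 alternatives. It was lost when arrays 3 or 4 of 3x salt, or arrays 2 or 3 of 1x salt, were each left out (adjusted p = 0.0604 to 0.084). With slide as a fixed block the difference was -1.15 (adjusted p = 0.198). The call was also lost after normexp (adjusted p = 0.0785) and in a fit of the authors' deposited table (adjusted p = 0.0597). AGAL1 and AT3G56310 rose by 0.55 and 0.50 in 3x salt against no salt (adjusted p = 0.000436 and 0.00175). AGAL1 also rose by 0.49 in 3x salt against 1x salt (adjusted p = 0.00212), a call lost with slide as a fixed block (adjusted p = 0.1). Between the regimes 3 of the 6 genes rose and 1 fell, where 4650 of the 23442 genes tested rose and 19.0% fell. In 1x salt against no salt 2 of the 6 rose and 0 fell, where 9.24% of all genes rose.

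**Figure D4:**
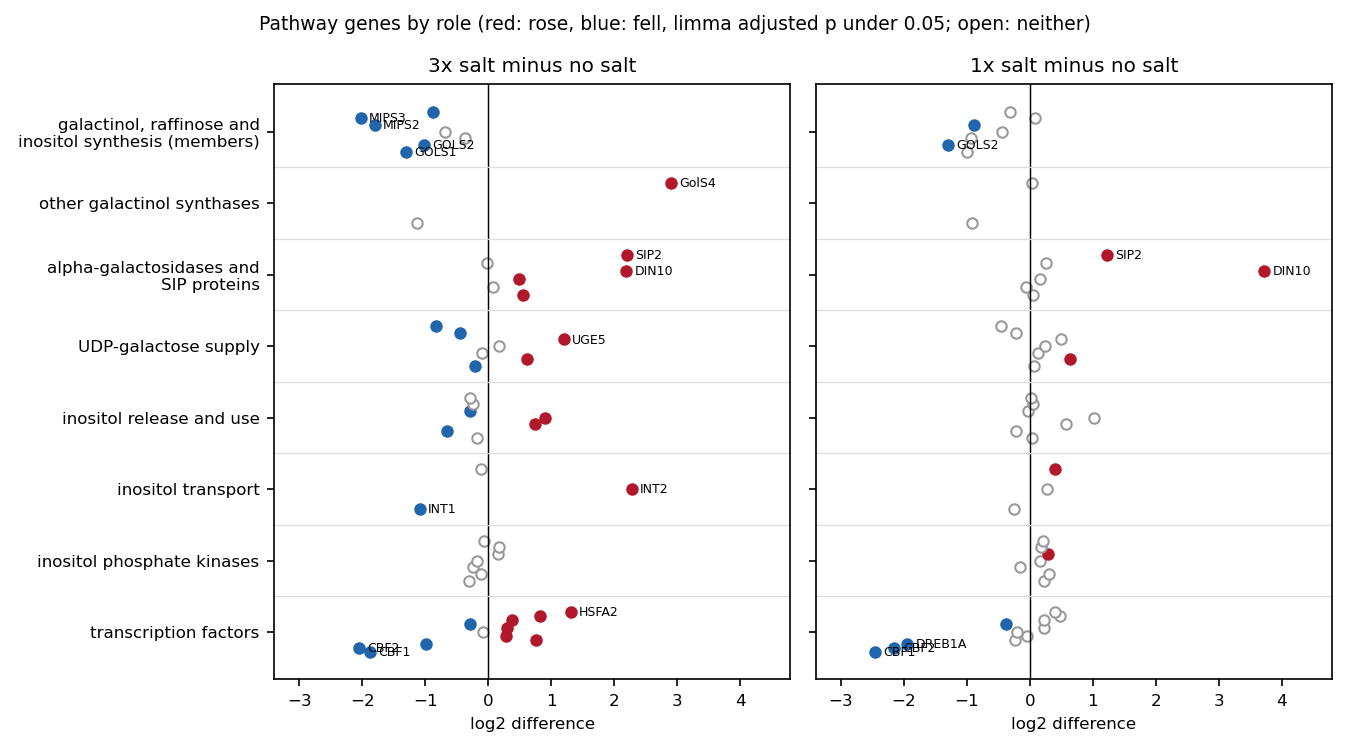
Log2 difference (x axis) of each measured gene, by role (y axis), in 3x salt minus no salt and 1x salt minus no salt. Red points rose and blue points fell at a limma adjusted p under 0.05, open points did neither, and called genes beyond 1 on the log2 scale are named; SIP2 and DIN10 stand right of 0 in both panels. GolS4 is drawn at its fitted value, although it was not well above background on any no-salt array. Its red colour and name mark a call that the text does not use, since GolS4 passed the filter on dim genes only through the 3x salt arrays.

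Genes supplying UDP-galactose, the galactose donor of galactinol synthase, went both ways in 3x salt: 2 of 7 rose and 3 fell against no salt, where 27.9% of all genes rose and 23.6% fell. The UDP-glucose epimerase gene UGE5 rose by 1.20 ± 0.16 (adjusted p = 0.000221) and UGE1 by 0.62 ± 0.12 (adjusted p = 0.00162), whereas the UDP-glucose pyrophosphorylase gene UGP1 fell by 0.44 (adjusted p = 0.00334). The probes of UGE5 disagreed, since the mean of its probes gave 0.12 (adjusted p = 0.281). Between the regimes 1 of the 7 rose and 1 fell in 3x salt, where 4650 of the 23442 genes tested rose and 19.0% fell. They were UGE5 (0.70, adjusted p = 0.00948, and 0.21 with adjusted p = 0.123 for the mean of its probes) and RHD1 (-0.29, adjusted p = 0.0197). Both calls were lost with slide as a fixed block (adjusted p = 0.0873 and 0.14). In 1x salt against no salt only UGE1 passed, with a rise of 0.63 ± 0.13 (adjusted p = 0.00875), whereas without 1x salt array 1 the list had 3 rises and 2 falls, where 13.3% of all genes rose and 10.5% fell. With slide as a fixed block, UGE1 in 3x salt and in 1x salt (adjusted p = 0.0524 and 0.108) and UGP1 in 3x salt (adjusted p = 0.0745) no longer passed. In a fit of the authors' deposited table UGE1 did not pass in either (adjusted p = 0.0977 in 3x salt and 0.213 in 1x salt).

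Inositol carriers also differed among themselves. INT1, which releases inositol from the vacuole, had log2 levels of -0.22, -0.11, 0.08 and 0.14 on 3x salt arrays, 0.81, 0.76 and 0.88 on 1x salt arrays, and 0.99, 0.99, 1.20 and 1.05 on no-salt arrays. It fell by 1.09 ± 0.09 in 3x salt against no salt (adjusted p = 2.16e-05) and by 0.84 ± 0.10 in 3x salt against 1x salt (adjusted p = 0.000267). INT2, a plasma membrane carrier that takes up inositol, stood at 1.18, 1.30, 0.99 and 1.09 on 3x salt arrays, -1.87, -0.53 and -0.21 on 1x salt arrays, and -1.35, -1.21, -1.02 and -0.97 on no-salt arrays. It rose by 2.28 ± 0.30 in 3x salt against no salt (adjusted p = 0.000197) and by 2.01 ± 0.32 in 3x salt against 1x salt (adjusted p = 0.00111). The INT2 call between the regimes passed under 21 of 22 alternatives, and was lost only with close arrays averaged (adjusted p = 0.0693). INT4 rose by 0.40 in 1x salt against no salt (adjusted p = 0.0232), a call lost without 1x salt array 3 or no-salt array 3 (adjusted p = 0.0903 and 0.0651), after normexp (adjusted p = 0.134) and in a fit of the authors' deposited table (adjusted p = 0.0728). In 3x salt against 1x salt INT4 fell by 0.51 (adjusted p = 0.00332), a call lost with slide as a fixed block (adjusted p = 0.0679). Between the regimes 1 of the 3 measured carriers rose and 2 fell, where 4650 of the 23442 genes tested rose and 19.0% fell.

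Of the genes that release or use inositol, 7 of 9 were measured, and 2 rose and 2 fell in 3x salt against no salt, near the 27.9% and 23.6% of all genes. MIOX1, which oxidises inositol, rose by 0.74 ± 0.18 (adjusted p = 0.00624). PIS1, which puts inositol into phosphatidylinositol, fell by 0.29 ± 0.07 (adjusted p = 0.00687), and IMPL2, named for inositol monophosphatase but known as a histidine synthesis enzyme, fell by 0.65 ± 0.11 (adjusted p = 0.00067). Their count in 1x salt against no salt was 0 by limma, where 9.24% of all genes rose and 7.70% fell. At an unadjusted p under 0.05, 2 rose and 0 fell, where 4166 of the 23442 genes tested rose and 3201 fell. Without 1x salt array 1, 2 rose and 1 fell by adjusted p, where 13.3% of all genes rose and 10.5% fell. PIS1 in 3x salt against no salt missed the threshold with slide as a fixed block (adjusted p = 0.0584), after normexp (0.244) and in a fit of the authors' deposited table (0.133). Between the regimes 0 of these 7 genes rose and 2 fell, where 4650 of the 23442 genes tested rose and 19.0% fell. They were IMPL2 (-0.43, adjusted p = 0.0143) and PIS1 (-0.27, adjusted p = 0.02). Both calls were lost with slide as a fixed block (adjusted p = 0.109 and 0.13) and after normexp (adjusted p = 0.148 and 0.251). Of the 7 inositol phosphate kinase genes, 0 passed in 3x salt against no salt, where 27.9% of all genes rose and 23.6% fell. At an unadjusted p under 0.05 their count was also 0, where 7275 of the 23442 genes tested rose and 6159 fell. In the fit without 1x salt array 1, 2 of them fell, where 25.0% of all genes fell. IPK2a alone passed in 1x salt against no salt (0.30, adjusted p = 0.0419, lost without any of 9 single arrays). In 3x salt against 1x salt 4 of the 7 kinase genes fell, where 19.0% of all genes fell, led by AT4G33770 (-0.42, adjusted p = 0.0102), AT4G08170 (-0.53, adjusted p = 0.0215) and ITPK4 (-0.26, adjusted p = 0.0225). That count was 2 without 1x salt array 1, where 16.0% of all genes fell. It was 1 without 1x salt array 3, and 2 when any 1 of the 3x salt arrays was left out. With each array left out in turn, 3753 to 4486 of the 23442 genes fell. The count was 0 after normexp, in a fit of the authors' deposited table and with slide as a fixed block. In those fits 3530, 6925 and 2796 of all genes rose or fell.

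Transcription factors known from Arabidopsis to act on these genes, such as CBF3 (DREB1A) on GOLS3, heat shock factors on GOLS1 and GOLS2, and FAR1 on MIPS1, formed a list of 11. In 3x salt against no salt 6 rose and 4 fell, where 27.9% of all genes rose and 23.6% fell. In 1x salt against no salt 0 rose and 4 fell, where 9.24% of all genes rose and 7.70% fell. At an unadjusted p under 0.05, 1 rose and 5 fell, where 4166 of the 23442 genes tested rose and 3201 fell. Without 1x salt array 1, 2 of the 11 rose and 4 fell in 1x salt against no salt, where 13.3% of all genes rose and 10.5% fell. CBF1 had log2 levels of -1.11, -1.18, -0.92 and -0.78 on 3x salt arrays, -1.57, -1.68 and -1.50 on 1x salt arrays, and 0.91, 0.80, 0.87 and 0.95 on no-salt arrays. It fell by 1.88 ± 0.10 in 3x salt (adjusted p = 2.01e-06) and by 2.47 ± 0.10 in 1x salt (adjusted p = 2.9e-06). DREB1A fell by 0.99 in 3x salt and by 1.94 in 1x salt (adjusted p = 0.00372 and 0.000922). CBF2 fell by 2.05 in 3x salt and by 2.15 in 1x salt (adjusted p = 8.25e-05 and 0.000648). HSFA1E rose by 0.82 in 3x salt against no salt (adjusted p = 0.00281), but after normexp the difference was 0.36 and did not pass (adjusted p = 0.275). In 3x salt against 1x salt 4 of the 11 rose and 0 fell, where 4650 of the 23442 genes tested rose and 19.0% fell. DREB2A rose by 1.00 (adjusted p = 0.00314), DREB1A by 0.95 (adjusted p = 0.0104) and CBF1 by 0.59 (adjusted p = 0.00187). With slide as a fixed block the calls of DREB1A and CBF1 were lost (adjusted p = 0.19 and 0.0543), and that of CBF1 also after normexp (adjusted p = 0.089).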

How the data were processed

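Guard-cell-enriched RNA from 11 samples was hybridised to 1-colour Agilent arrays on 6 slides, scanned on 1 day. Per the file headers, Agilent Feature Extraction (version 11.5.1.1) gave a background-subtracted, detrended intensity for every spot. A per-locus table of log2 values that the authors deposited served as an alternative. Its log2 scale was judged against the scanner values, its column medians were 8.29 to 8.34, and for its background correction, normalisation and centring no statement was found, so they remain unknown here.

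From the intensities, log2 values were centred on the 75th percentile of each array, and the brightest probe stood for a gene. Genes had to be well above background on 3 or more arrays, which kept 23442 of 34290. A linear model with the 3 group means was fitted to all arrays in limma (version 3.58.1, lmFit and eBayes, 8 residual degrees of freedom), under R 4.3.3 with the data.table package at version 1.17.8, and p-values were adjusted by Benjamini-Hochberg per comparison. The fit was first tested on simulated data. For changes of 0.5 on the log2 scale it recovered 30% in 1x salt against no salt, 37% in 3x salt against no salt and 14% in 3x salt against 1x salt. For changes of 1 it recovered 74%, 64% and 67%. A difference that did not pass can therefore still be a real one. For a gene not well above background in a group, "at least" sets the brighter group's mean against the mean of the higher of the array's detection floor and the probe's own signal. Names came from RefSeq (assembly TAIR10.1), where AT5G40390 has the symbol SIP1 and the synonym RS5. No sequence or position is given, and promoters were not analysed here. Plots used python 3.11.15, pandas 2.3.3 and matplotlib 3.10.9.

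The genes, lists and tests were chosen with earlier results of these data known. All 8 genes are named, with up to 3 called genes per list and comparison by adjusted p, and the 2 genes most correlated with each. Alternatives were normexp (offset 50, on median signals because the files hold no mean signals), quantile normalisation, other filters, mean probes, the deposited table, slide and replicate blocks, averaging close arrays, fitting only the groups compared, and leaving out each array.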

Additional observations from a re-analysis of the deposited data

Results flagged for a closer look

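GOLS1 on no-salt array 1 lay well below the other no-salt arrays, at 2.82 against 3.33 to 3.38. GOLS2 on the same array lay above the others, at 2.84 against 2.60 to 2.63. These were 2 of 14 groups of 4 arrays checked with Dixon's test at the 95% level, and chance flags about 1 group in 20. Without no-salt array 1, the 3x salt difference from no salt was -1.44 for GOLS1 and -0.97 for GOLS2, both still past the threshold.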

How the results depend on the processing

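The falls of MIPS2 and MIPS3 in 3x salt against no salt passed under all 22 alternatives. The number of measured genes that passed in 1x salt against no salt, 2 in the fit reported, was 1 with normexp background correction, 1 with slide as a fixed block and 1 with a fit of only the 2 groups compared, and 1 to 4 when each array was left out. Averaging arrays that lie close to each other, which leaves 6 samples, gave 0 by limma (1 at an unadjusted p under 0.05). In 3x salt against 1x salt, 3 in the fit reported, averaging close arrays gave 0 (2 unadjusted) and leaving out arrays gave 2 to 6. In 3x salt against no salt, 5 in the fit reported, averaging gave 2 and leaving out arrays 5 to 6. The cause of these changes was not tested. The averaged fit also has fewer samples, and what that alone does to the counts was not tested either. Same-numbered samples correlated in deviations at 0.01 to 0.23 for 3x salt and no salt, against -0.13 to 0.04 for other numbers. For 1x salt and no salt the values were 0.09 to 0.15, against -0.09 to 0.03. For 3x salt and 1x salt they were 0.27, -0.12 and 0.30, against -0.29 to 0.27. Same-numbered 1x salt and no-salt samples also shared slides, so number and slide cannot be told apart there. Whether the numbers pair samples is not settled by these values, and the fit reported has no pairing. A fit with the replicate number as a block called 6, 2 and 2 measured genes in 3x salt against no salt, 1x salt against no salt and 3x salt against 1x salt.

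Differences that turned sign were those not past the threshold. With slide as a fixed block, GOLS1 was 0.14 and GOLS2 -0.03 in 3x salt against 1x salt. With arrays left out in turn, that difference ran between -0.94 and 0.06 for GOLS1 (above 0 without 1x salt array 2), between -0.07 and 0.80 for GOLS2 (below 0 without 1x salt array 3) and between -0.48 and 0.08 for MIPS1 (above 0 without 1x salt array 1). MIPS3 in 1x salt against no salt ran between -0.21 and 0.29, reaching -0.21 when 1x salt array 1 was left out and -0.02 when no-salt array 1 was left out. Over all genes tested, 12067 passed in 3x salt against no salt and 3969 in 1x salt against no salt. Those counts were 6625 and 1085 with normexp, 7974 and 1044 with slide as a fixed block, and 2221 and 2 with close arrays averaged, and the 1x salt count was 2622 in the authors' deposited table and 2281 to 5580 with arrays left out. In 3x salt against 1x salt 9101 passed, 3530 with normexp, 2796 with slide as a fixed block and 512 with close arrays averaged. Normexp moved the median difference of all genes in 3x salt against no salt to -0.16, and no filter on dim genes moved it to -0.11 (-0.17 in 3x salt against 1x salt); relative to either, the differences of GOLS1, GOLS2, RS5, MIPS2 and MIPS3 stayed negative. Signal over background limits STS and GolS4.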
